A study of Mus musculus with 12 samples.

Results

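DNA methylation is written, copied, removed and read by a small set of proteins, and 9 genes of this set were followed here through RNA-seq of mouse thymocytes and T-cell lymphoma cells. They were chosen by symbol, as the methyltransferases Dnmt1, Dnmt3a and Dnmt3b, the partners Uhrf1 and Uhrf2, the dioxygenases Tet1, Tet2 and Tet3 and the reader Mbd2, and all 9 were found among the 50600 gene IDs counted in every library. All 9 were also among the 16052 genes with enough reads to be tested.

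The libraries come from 12 mice of a mixed C57Bl/6 and SV/129 background, 3 in each of 4 groups. Ctrl are thymocytes of mice with a loxP-flanked Dnmt1 gene (DNMT1 fl/fl) and no Cre, aged 20 to 25 wk. KO are thymocytes of DNMT1 fl/fl mice that carry CD4-CRE, which deletes Dnmt1 in T cells, aged 20 to 21 wk. ALK are T-cell lymphoma cells of mice with the human NPM-ALK oncogene under Cd4 regulatory elements, aged 22 to 31 wk. ALKKO are thymocytes of mice with NPM-ALK, DNMT1 fl/fl and CD4-CRE, aged 19 to 25 wk. The labels do not say whether ALK mice carry the floxed allele. Because tumor cells were sampled only in ALK, the transgene and the tumor state cannot be told apart in that group, and ALKKO is the group that carries the transgene in thymocytes. Cd4-Cre acts in T-lineage cells from the stage at which Cd4 is switched on, so thymic cells of other kinds keep an intact gene.

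The files of each mouse hold 12473857 to 18864327 reads counted on genes, and levels are given as CPM, counts scaled to 1000000 reads per library after TMM normalization. A gene was called when its adjusted p was under 0.05 and its absolute log2 fold change above 1. Alk, which reports the transgene, was at 34.9 to 55.0 CPM in the 6 libraries of ALK and ALKKO and at most 0.431 CPM in the 6 others. In ALK, 5 of the 8 tested genes on a list set up for CD4+CD8+ thymocytes were called lower than in Ctrl and 0 higher. Ptcra, which is not specific to that stage, was the 1 with a positive log2 fold change. It was at a mean of 200 CPM (32.5 to 425 among the tumors) against 47.6 in Ctrl. Dntt was at a mean of 1867 CPM against 1910. Summed B-cell markers were at 2.27 to 8.76 CPM in ALK against 45.4 to 81.6 in Ctrl. Of 8 markers of thymic epithelium and stroma, the collagens Col1a1 and Col3a1 were called higher in ALK, at means of 442 and 652 CPM against 23.1 and 85.2 in Ctrl, and the epithelial genes Psmb11, Krt8 and Foxn1 were called lower, at 0.243, 9.76 and 0.62 CPM against 116, 234 and 23.0. The sum of these 8 was 726 to 1758 CPM in ALK and 687 to 754 in Ctrl. In the 3 ALK libraries 48.5% to 51.8% of alignments were not unique and 1.38% to 1.60% ambiguous, against 39.2% to 45.6% and 2.001% to 2.83% in the 9 others. Among the tumors, ALK3 came from the oldest mouse, at 31 wk against 24 for ALK1 and 22 for ALK2. It held 950 CPM of macrophage and granulocyte markers against 390 and 300. Its erythroid markers were at 602 CPM against 160 and 22.3. Its sum of epithelial and stromal markers was the lowest of the 3, at 726 CPM against 1758 and 1053. The part of these shifts, and of these features of ALK3, in the results for ALK was not tested. The library KO2, from the only female among the 12 mice, stood apart with 1835 CPM of B-cell markers and 2493 CPM of macrophage and granulocyte markers, against 40.4 to 45.9 and 541 to 775 in KO1 and KO3. Values of KO without KO2 are given beside the results for Dnmt1, Dnmt3a, Dnmt3b, Uhrf1, the replication genes and the family shares. Rag1, Cdt1 and Itgam were listed at 0 reads in all 12 libraries and were left out of their lists. In bulk RNA, fewer cells of a type and less RNA per cell cannot be told apart.

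As background, cytosine methylation in mammals is found mostly at CpG sites. DNMT3A and DNMT3B place it on unmethylated DNA, whereas DNMT1 copies it to the daughter strand behind the replication fork. UHRF1 recognizes hemimethylated CpG and recruits DNMT1, and UHRF2 is its close relative. TET enzymes oxidize 5-methylcytosine, which opens the way to its removal. MBD2 binds methylated CpG and brings in the NuRD repressor complex. Dividing cells need DNMT1 and UHRF1 at each S phase, and loss-of-function changes of DNMT3A and TET2 are well known in human T-cell lymphoma.

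CpG sites, the substrate of these enzymes, are also found at the promoters of their own genes, in numbers that differ between genes and windows. RefSeq promoter windows on GRCm38.p6, 250 bases before to 50 bases after a transcript start, were found for 8 of the 9 genes. For Dnmt1, Uhrf1, Dnmt3b and Tet1, on which several of the results turn, the 250 bases before the start are printed, in the transcript's direction and with each CpG in capitals, and where a gene has several windows the one with most CpG was taken. Dnmt1 lies at chr9:20907209-20959888 on the minus strand, and the window at chr9:20952624-20952873 holds 26 CpG. It is inside the annotated gene, downstream of the other annotated starts of Dnmt1. Uhrf1 lies at chr17:56303321-56323486 on the plus strand, and the window at chr17:56304063-56304312 holds 30. This window is also inside the annotated gene, downstream of the other annotated start of Uhrf1. Dnmt3b lies at chr2:153649450-153687730 on the plus strand, and its window at chr2:153649199-153649448 holds 21. Tet1 lies at chr10:62804570-62908996 on the minus strand, and its window at chr10:62887325-62887574, inside the annotated gene, holds 15.

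Dnmt1: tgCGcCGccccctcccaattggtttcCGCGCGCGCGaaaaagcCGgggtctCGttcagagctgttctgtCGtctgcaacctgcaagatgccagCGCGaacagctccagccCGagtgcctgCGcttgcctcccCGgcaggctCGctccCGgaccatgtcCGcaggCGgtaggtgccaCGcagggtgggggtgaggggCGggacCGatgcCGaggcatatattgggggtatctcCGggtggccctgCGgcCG

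Uhrf1: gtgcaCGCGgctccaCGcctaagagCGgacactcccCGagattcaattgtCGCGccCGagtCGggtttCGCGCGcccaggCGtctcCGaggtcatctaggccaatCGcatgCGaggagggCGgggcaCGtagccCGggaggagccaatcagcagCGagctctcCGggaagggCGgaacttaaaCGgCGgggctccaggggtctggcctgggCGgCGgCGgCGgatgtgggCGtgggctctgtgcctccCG

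Dnmt3b: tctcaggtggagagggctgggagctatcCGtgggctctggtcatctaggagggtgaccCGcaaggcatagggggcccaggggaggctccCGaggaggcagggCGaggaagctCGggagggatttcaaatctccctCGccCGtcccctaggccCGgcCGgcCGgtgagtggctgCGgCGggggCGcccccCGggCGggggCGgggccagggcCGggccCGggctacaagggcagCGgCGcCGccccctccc

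Tet1: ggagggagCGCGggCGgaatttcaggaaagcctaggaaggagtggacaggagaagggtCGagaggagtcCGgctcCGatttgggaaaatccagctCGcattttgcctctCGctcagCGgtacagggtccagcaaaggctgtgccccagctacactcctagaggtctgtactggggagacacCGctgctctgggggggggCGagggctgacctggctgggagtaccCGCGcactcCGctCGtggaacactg

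Over the full 300 bases, these windows hold 33 CpG for Dnmt1, 33 for Uhrf1, 30 for Dnmt3b and 17 for Tet1, against a median of 7 and quartiles of 3 and 20 over all 32851 windows in the table. Dnmt1 has 3 annotated windows that differ widely, since the one at the upstream end of the gene holds 2 CpG and the next holds 12. The other window of Uhrf1 also holds 12, and Tet1 is under the upper quartile of all windows. The window of Tet2 holds 57 CpG, more than 99.8% of all windows, and the richest of the 3 windows of Dnmt3a holds 47. Matches to the STAT motif TTCNNNGAA, searched on both strands, were absent from the 13 windows of the 8 genes, while 8.30% of all windows hold 1. A match to the E2F motifs TTTCCCGC or TTTGGCGC, held by 1.57% of all windows, was found in 1 of the 13, the CpG-rich window of Dnmt1, at 33 bases after its start. The SP motif GGGCGG was found in 11 of the 13 (35.7% of all windows), CCAAT in 5 (37.4%) and the E-box CACGTG in 1 (7.15%), each on either strand. The SP, E2F and E-box motifs each contain a CpG, and all member windows but the upstream one of Dnmt1 exceed the median CpG number. The part of CpG number in these counts was not tested. Windows 1 and 2 of Dnmt3a overlap, so the 13 are not independent. Motif matches are letters in a sequence and not measured binding.

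**Figure D1:**
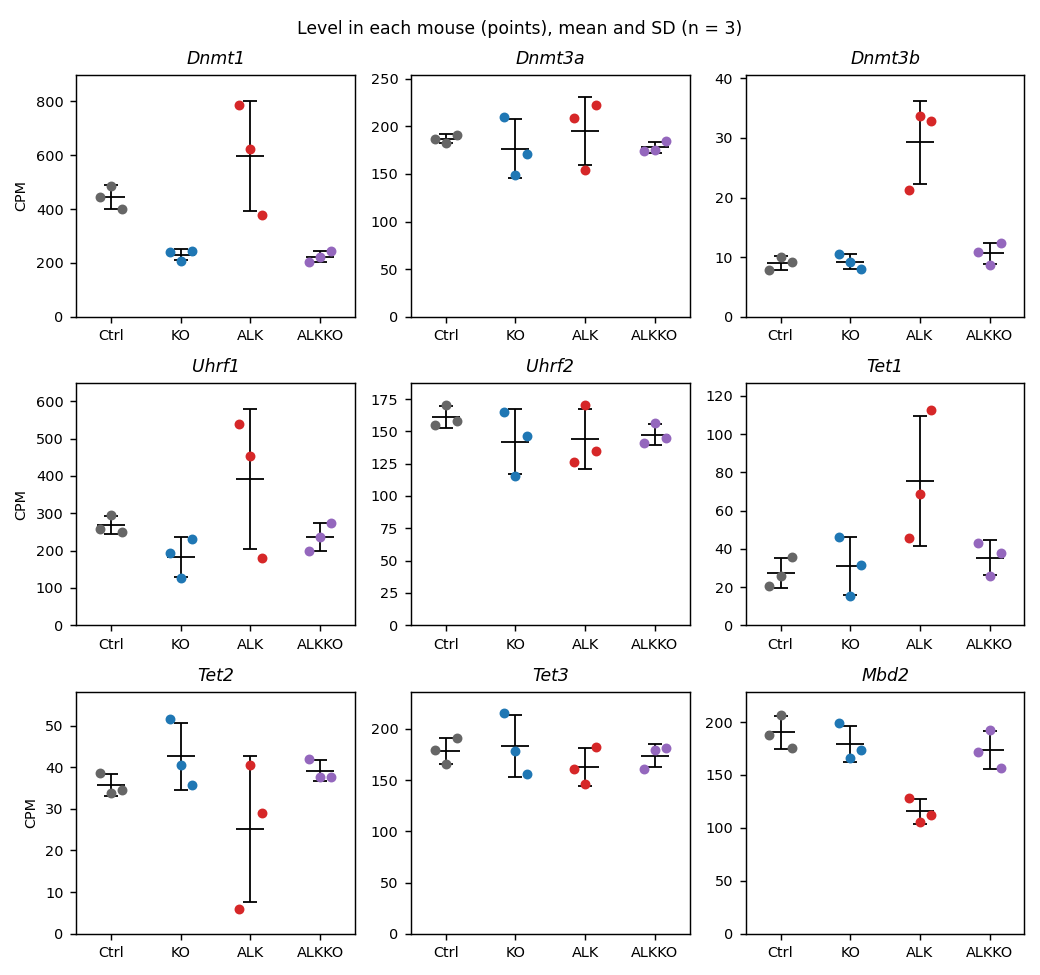
Level of the 9 genes in CPM in each mouse (points), with the group mean and SD (n = 3), in Ctrl, KO, ALK and ALKKO. Dnmt1 means are 230 and 224 CPM in KO and ALKKO, the 3 ALK mice are above all others for Dnmt3b and above the Ctrl mice for Tet1, and they are below all others for Mbd2.

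Dnmt1, the gene targeted in KO and ALKKO, was lower in all 6 mice with the deletion than in any mouse without it. In CPM, its level was 444, 487 and 400 for the Ctrl mice, 240, 206 and 244 for KO, 205, 222 and 244 for ALKKO, and 788, 624 and 379 for ALK. The signal did not disappear after deletion, since KO stood at 230 ± 20.8 CPM and ALKKO at 224 ± 19.8 against 444 ± 43.6 in Ctrl (SD, n = 3 each). Reads were summed over the whole gene, so RNA of the deleted allele that lacks the floxed part is included and the share of intact transcript is unknown. In the fit across all genes, the log2 fold change was -0.95 ± 0.23 (SE) for KO and -0.99 ± 0.23 for ALKKO against Ctrl. Neither passed the test over 16052 genes, with an edgeR adjusted p of 0.787 (unadjusted 0.00172) and 0.259 (unadjusted 0.00129), although the groups did not overlap. DESeq2's Wald test gave adjusted p of 0.0435 and 0.00915 for the same comparisons. The edgeR SE above was estimated over all 12 libraries, tumors included. Fitted to only the groups compared, edgeR gave -0.95 ± 0.13 for KO (adjusted p = 0.399) and -0.99 ± 0.11 for ALKKO (adjusted p = 0.0102). Both stayed under the fold threshold of 1. Without KO2 the log2 fold change of KO was -0.87.

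In ALK tumors Dnmt1 varied more than in any other group, with a coefficient of variation of 34.5% against 8.88% to 9.81%, and its range enclosed that of Ctrl. The log2 fold change against Ctrl was 0.43 ± 0.23 (edgeR adjusted p = 0.174). The low value belongs to ALK3, from the oldest mouse (31 wk), and without it the log2 fold change was 0.66 with an adjusted p of 0.0115. Without ALK1, the highest, it was 0.18 with an adjusted p of 0.528. Against ALKKO, which shares the transgene, ALK was called higher, by 2.67-fold (log2 fold change 1.42 ± 0.23, edgeR adjusted p = 0.00214).

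The other writers behaved differently from Dnmt1. Dnmt3a was among the steadiest of the 9 genes, at 187, 183 and 192 CPM in Ctrl and between 149 and 223 CPM in the 9 other mice, and its log2 fold changes lay between -0.08 and 0.13 in all 5 comparisons. It lies at chr12:3806007-3914443 on the plus strand, and 0.799% of its exon sequence is shared with the antisense gene Dnmt3aos. Loss of Dnmt1 was not accompanied by a detectable change of Dnmt3a, with a log2 fold change of -0.08 ± 0.16 in KO (edgeR adjusted p = 0.966) and -0.07 ± 0.16 in ALKKO (0.9998). Without KO2 the value of KO was 0.03.

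Dnmt3b separated the tumors from all thymocytes. It stood at 21.2, 33.7 and 32.8 CPM in ALK, against 7.82, 10.1 and 9.17 in Ctrl, 10.6, 9.13 and 8.02 in KO and 10.8, 8.67 and 12.3 in ALKKO. Each ALK mouse was above each of the 9 others, which span only 7.82 to 12.3 CPM. The rise was 3.24-fold against Ctrl (log2 fold change 1.70 ± 0.26, edgeR adjusted p = 0.00155) and 2.76-fold against ALKKO (1.46 ± 0.26, adjusted p = 0.0031), and it was called in every one of the alternative fits. These levels rest on 106 to 420 reads per library, for a counting error of 4.88% to 9.71%. The log2 fold change of KO against Ctrl was 0.05 without KO2. In ALKKO, which also expresses NPM-ALK, the log2 fold change against KO was 0.20 ± 0.25 (adjusted p = 0.9998). The ALKKO against KO change minus the ALK against Ctrl change was -1.50 ± 0.36 on the log2 scale (edgeR adjusted p = 0.0286). Tumor state is part of this value, since only ALK are tumor cells. Dnmt3b was the 1 of 9 genes called for this difference, where 8.93% of all genes tested were called and 10.3% passed the adjusted p. That call was lost when any 1 Ctrl or ALKKO mouse, KO1 or ALK2 was left out (highest adjusted p 0.0927, without Ctrl1).

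Uhrf1, the partner that directs DNMT1 to replicating DNA, was in the same order as Dnmt1 among the tumors and was not called in any comparison. It was at 258, 296 and 250 CPM in Ctrl, 193, 126 and 231 in KO, 538, 454 and 181 in ALK, and 199, 237 and 274 in ALKKO. The 3 tumors thus spanned 2.98-fold, with ALK1 and ALK2 above and ALK3 below all Ctrl mice. The log2 fold change of ALK was 0.54 ± 0.35 against Ctrl (edgeR adjusted p = 0.261) and 0.72 ± 0.35 against ALKKO (0.144). Without ALK3 the latter was 1.06 and passed the call with an adjusted p of 0.0095, whereas without ALK1 it was 0.45 with an adjusted p of 0.371. In KO all 3 mice were below Ctrl, by -0.55 ± 0.35 on the log2 scale (adjusted p = 0.874), and the value fell to -0.34 without KO2, which holds the lowest level. Uhrf2 (chr19:30030513-30093722, plus strand) kept to 115 to 171 CPM in all 12 mice, and its log2 fold changes lay between -0.18 and 0.05.

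**Figure D2:**
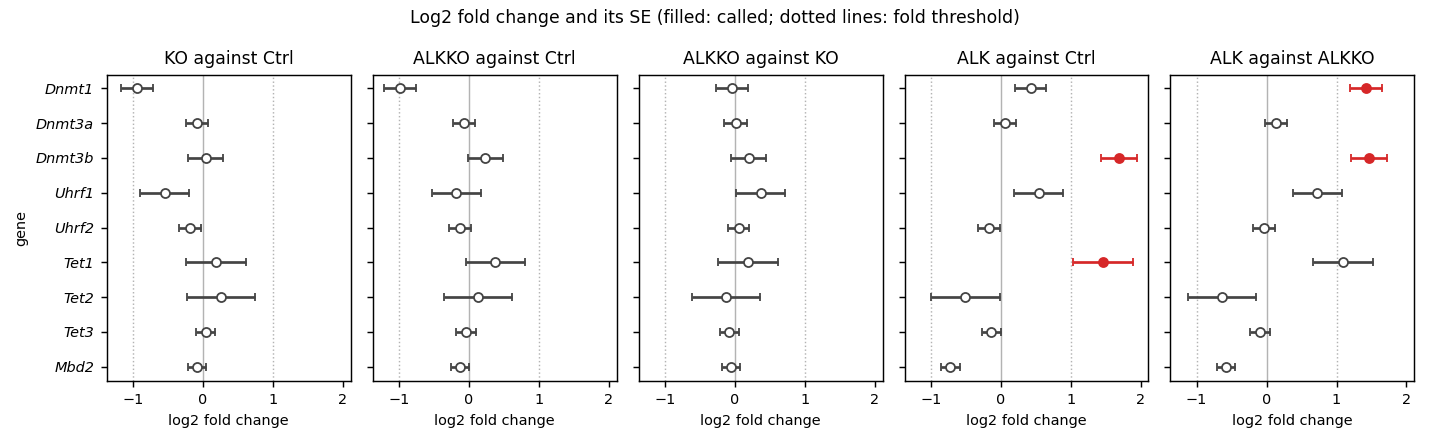
Fitted log2 fold change (x axis) with its SE for each of the 9 genes in 5 comparisons, with called genes in filled red and dotted lines at the fold threshold of 1. Calls were made only in the comparisons with ALK: Dnmt3b and Tet1 against Ctrl, and Dnmt1 and Dnmt3b against ALKKO.

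Because DNMT1 and UHRF1 act at the replication fork, each gene was also set against 19 DNA replication genes of the same mouse. Proliferation readouts differed among mice: Mki67, a marker of cycling cells, was at 1577, 1380 and 590 CPM in ALK and at 415 in KO2, against 748 to 885 in Ctrl, and Pcna, the replication clamp, was at 332, 262 and 154 CPM in ALK against 192 to 265 in Ctrl. Of the 19 replication genes, 18 had a positive log2 fold change in ALK against Ctrl (median 0.59, with 1 called higher). Of all genes tested 20.4% were called there and 8.41% called higher, and their median was 0.05. Without ALK3 the median of the 19 was 0.83, with 5 called (3748 of all 16571 genes tested). Without ALK1 it was 0.34, with none called (3649 of 16623). In KO all 19 were negative (median -0.41, none called with edgeR, where 0.0187% of all genes were). Their sum was 2054, 1662 and 2546 CPM in KO, so that KO2 was lowest and KO3 lay within the 2429 to 3192 CPM of Ctrl. Without KO2 the median was -0.25, with 18 of the 19 negative.

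Relative to the mean log2 level of these genes, Dnmt1 in the tumors was close to Ctrl. The difference was 1.97, 1.73 and 1.92 in ALK and 2.04, 1.90 and 2.03 in Ctrl, so the 2 groups overlapped (mean difference -0.12, exact permutation p = 0.3, adjusted over 45 tests 0.5). On this log2 scale the SD was 0.12 among the tumors and 0.07 among the Ctrl mice. In KO the values were 1.52, 1.62 and 1.24, and in ALKKO 1.15, 1.11 and 1.14, all below Ctrl. ALKKO was also below KO in all mice, by 0.32 on average, although the CPM of these groups overlapped. KO2 held the highest KO value. Without KO2 the mean difference was -0.24 for ALKKO against KO and -0.61 for KO against Ctrl. In the fit, the log2 fold change of Dnmt1 in ALKKO against KO was -0.04. All 19 replication genes had a positive one there (median 0.25, none called where 0.00623% of all genes were). With 3 mice against 3, the smallest two-sided exact permutation p is 0.1, which each non-overlapping comparison of Dnmt1 on this scale reached (adjusted p = 0.5). Uhrf1 overlapped between the groups in all 5 comparisons on this scale, with mean differences from -0.17 to 0.12. Mbd2 was lower relative to replication genes in ALK than in Ctrl by 1.21 and than in ALKKO by 1.21, without overlap, and Dnmt3b was higher in ALK than in Ctrl by 1.19, again without overlap (exact permutation p = 0.1 each, adjusted p = 0.5). Dnmt3b of ALK overlapped ALKKO on this scale (mean difference 0.83, exact permutation p = 0.3, adjusted p = 0.5). Tet1 of ALK overlapped both Ctrl (0.92, exact permutation p = 0.2, adjusted p = 0.5) and ALKKO (0.41, exact permutation p = 0.8, adjusted p = 0.923).

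**Figure D3:**
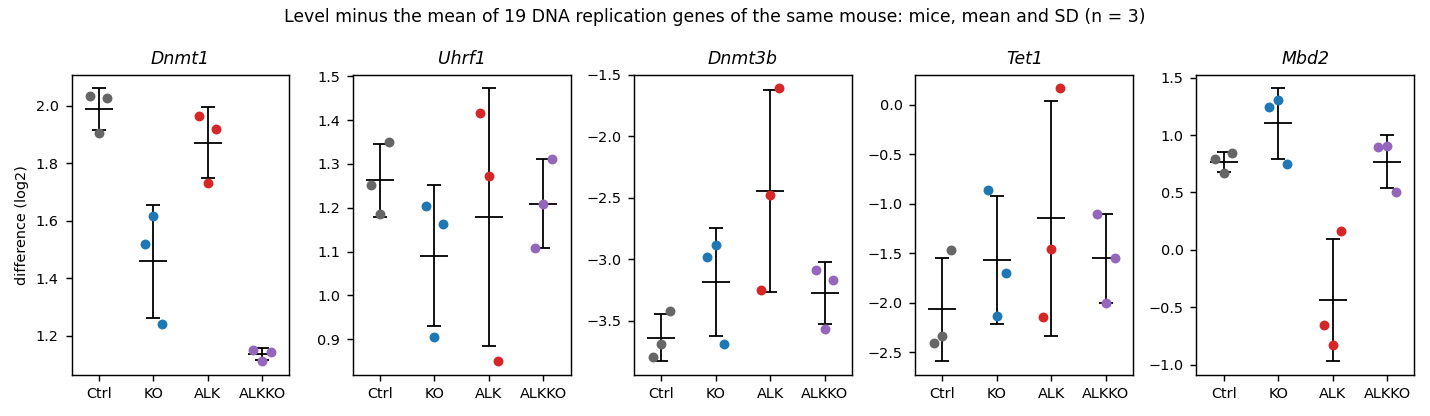
Log2 CPM of 5 genes minus the mean log2(CPM + 1) of 19 DNA replication genes of the same mouse (points), with the group mean and SD (n = 3). On this scale Dnmt1 of ALK overlaps Ctrl, whereas KO and ALKKO lie below both, and Mbd2 is lowest in ALK.

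Among the erasers, Tet1 was higher in the tumors. It stood at 45.7, 68.5 and 113 CPM in ALK and at 20.5, 25.9 and 35.6 in Ctrl, a 2.76-fold difference without overlap (log2 fold change 1.47 ± 0.43, edgeR adjusted p = 0.0279). KO held 46.1, 15.3 and 31.8 CPM and ALKKO 43.0, 25.6 and 37.8 CPM, so ALK1 lay within the range of KO. Against ALKKO, the log2 fold change of ALK was 1.09 ± 0.43 without overlap but did not pass the test (adjusted p = 0.0797). The call against Ctrl was lost when Ctrl1, Ctrl2, ALK2 or ALK3 was left out, with adjusted p of 0.107, 0.088, 0.0532 and 0.0862 and log2 fold changes of 1.05 to 1.51. The order of the tumors for Tet1 was the reverse of that for Dnmt1 and Uhrf1, since ALK3 had the highest Tet1 and ALK1 the lowest.

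Tet2 (chr3:133463679-133545139, minus strand) differed more among the tumors than between groups. ALK1 had 5.98 CPM, from 89 reads, whereas ALK2 and ALK3 had 40.5 and 29.1 CPM and the 9 thymocyte libraries 33.8 to 51.6 CPM. The coefficient of variation was 69.8% in ALK and 6.42% to 19.0% in the other groups. The log2 fold change of ALK against Ctrl was -0.51 ± 0.49 (edgeR adjusted p = 0.461), so no group difference was shown. Tet3 (chr6:83362373-83459084, minus strand), the most abundant Tet gene per length in all 4 groups, lay between 146 and 215 CPM, and its log2 fold changes were between -0.13 and 0.04.

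Mbd2 (chr18:70568189-70626131, plus strand) was lower in each tumor than in each of the 9 thymocyte samples. It stood at 129, 106 and 112 CPM in ALK, against 188, 207 and 176 in Ctrl, 199, 166 and 173 in KO and 171, 192 and 157 in ALKKO. The log2 fold change was -0.72 ± 0.13 against Ctrl (edgeR adjusted p = 0.00324) and -0.59 ± 0.13 against ALKKO (adjusted p = 0.00873). Both are under the fold threshold of 1, so Mbd2 was not called, but both passed the adjusted p in every alternative fit. The ALKKO against KO change minus the ALK against Ctrl change was 0.67 ± 0.18 on the log2 scale (edgeR adjusted p = 0.0443). Only ALK are tumor cells, so transgene, deletion and tumor state cannot be told apart in this value. Over the alternative fits the adjusted p of this difference ran from 0.00191 to 0.0984.

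Counted over the 9 genes, 2 were called in ALK against Ctrl, both higher, where 20.4% of all genes tested were called and 8.41% called higher. In ALK against ALKKO, 2 were called, both higher, where 19.6% of all genes were called and 7.03% called higher. None was called in KO against Ctrl, where 0.0187% of all genes were, in ALKKO against Ctrl, where 0.181% were, or in ALKKO against KO, where 0.00623% were. At an unadjusted edgeR p under 0.05, Dnmt1 alone passed in KO against Ctrl (5.52% of all genes) and in ALKKO against Ctrl (3.18%), and 0 of the 9 in ALKKO against KO (2.69%). DESeq2's Wald test, at both thresholds, called 0 of the 9 in these 3 comparisons. By adjusted p alone, 3 of the 9 passed in ALK against Ctrl (29.5% of all genes), where Mbd2 joined Dnmt3b and Tet1, and 3 in ALK against ALKKO (28.1%), where it joined Dnmt1 and Dnmt3b. In ALK against Ctrl, 3 of the 9 genes had groups that did not overlap, and 46.4% of all genes did. In ALK against ALKKO these were 4 of 9 and 43.2%. In KO against Ctrl they were 2 of 9 (Dnmt1 and Uhrf1) and 12.4%, and in ALKKO against Ctrl 1 of 9 (Dnmt1) and 17.5%. The comparisons share groups and are not independent of each other.

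Levels of different genes can be compared per kilobase of exon. On this scale Uhrf1, Dnmt1 and Mbd2 led in Ctrl, with 63.0 ± 5.71, 60.2 ± 5.90 and 59.2 ± 4.85 CPM per kb (SD, n = 3), and these neighbours overlapped. Uhrf2 followed with 18.8, Dnmt3a with 11.2 and Tet3 with 10.7, the last 2 overlapping, and Tet2, Tet1 and Dnmt3b came last with 2.12, 1.77 and 1.77, overlapping. In KO and ALKKO, Dnmt1 was behind both Uhrf1 and Mbd2, at 31.2 and 30.3 CPM per kb, and did not overlap Mbd2. In ALK, Uhrf1 and Dnmt1 were at 91.8 ± 43.9 and 80.9 ± 27.9, Mbd2 followed with 36.0, and Dnmt3b and Tet1, at 5.73 and 4.89, stood above Tet2 at 1.49 without overlap. Some of these ranks depend on the length used. With the longest transcript as length, Mbd2 ranked 1, Dnmt1 2 and Uhrf1 3 in Ctrl. In KO and ALKKO, Uhrf2 then ranked 3 and Dnmt1 4. The order in ALK stayed the same.

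The make-up of the methyltransferase family per length did not overlap between Ctrl and the groups with the deletion, although no difference of shares passed its adjusted test. Dnmt1 gave 80.3% to 83.6% of the summed CPM per kb of Dnmt1, Dnmt3a and Dnmt3b in Ctrl, 68.9% to 73.6% in KO and 68.8% to 71.1% in ALKKO. Since the deleted gene holds most of this sum, its fall by itself raises the shares of Dnmt3a and Dnmt3b. The CPM of Dnmt3a and Dnmt3b overlapped Ctrl in both groups with the deletion. The share of Dnmt3a was 13.9% to 17.0% in Ctrl, 23.0% to 26.7% in KO and 23.8% to 26.0% in ALKKO, while its CPM had not changed detectably. The mean difference of the Dnmt3a share between KO and Ctrl was 8.80 percentage points, and 9.36 without KO2. In the tumors the shares depended on the mouse, since Dnmt1 gave 86.5%, 84.2% and 72.2%. Dnmt3b gave 3.37%, 6.57% and 9.04% in ALK and 2.10% to 2.66% in Ctrl. Its share was also above every Ctrl mouse in KO, at 3.5% to 4.63%, and in ALKKO, at 4.02% to 5.26%, and ALK1 was below all 6 of these mice. ALK overlapped ALKKO for it (exact permutation p = 0.5, adjusted p = 0.6). Among the Tet genes, Tet1 gave 22.8% to 36.5% in ALK, 9.25% to 14.6% in Ctrl and 11.3% to 18.7% in ALKKO. Each of the non-overlapping differences of shares had the smallest possible exact permutation p of 0.1 (0.273 adjusted over 30 tests). The shares of Tet2 and Tet3 overlapped between ALK and Ctrl.

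**Figure D4:**
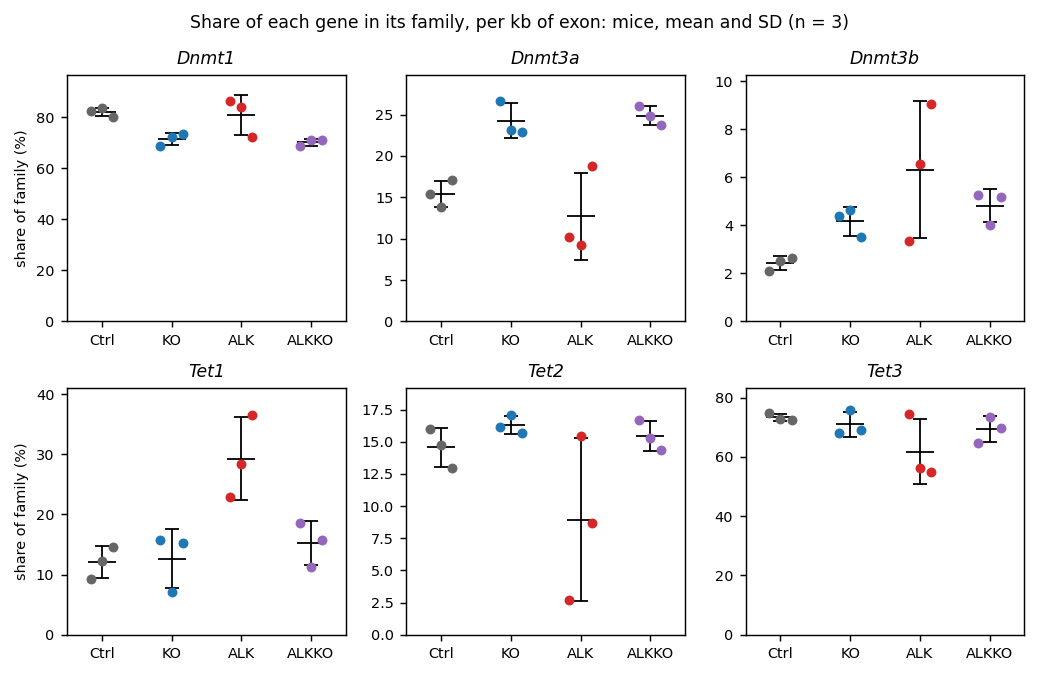
Share in percent of each methyltransferase and each Tet gene in the CPM per kb of its family, in each mouse (points), with the group mean and SD (n = 3). Dnmt1 holds less and Dnmt3a more of its family in KO and ALKKO than in Ctrl, and Tet1 holds a larger share of its family in the 3 ALK mice than in the 9 others. A lower Dnmt1 by itself raises the shares of Dnmt3a and Dnmt3b.

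Beyond the 9 genes, 35 of 36 other genes of the methylation machinery could be tested. In ALK against Ctrl, 4 were called higher and 2 lower, which is 6 of 35 where 20.4% of all genes were called (8.41% higher and 12% lower), with a median log2 fold change of -0.02 over the 35 against 0.05 over all genes. None was called with edgeR in KO or ALKKO against Ctrl or in ALKKO against KO, and in ALK against ALKKO 3 were called higher and 2 lower, where 19.6% of all genes were called. In both comparisons, calls in either direction were together no more frequent among these genes than among all genes.

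Ahcy, the hydrolase that clears S-adenosylhomocysteine, the by-product that inhibits methyltransferases, was 2.43-fold higher, at 39.3, 29.3 and 24.8 CPM in ALK against 12.8, 15.2 and 10.4 in Ctrl (log2 fold change 1.28 ± 0.24, edgeR adjusted p = 0.00411). Cdca7l, a paralog of the HELLS activator Cdca7, rose 2.37-fold, from 27.8 to 34.1 CPM in Ctrl to 47.6 to 88.1 CPM in ALK (adjusted p = 0.00293). Both were also called higher in ALK against ALKKO, by 1.52 and 1.13 on the log2 scale.

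Zbtb38, a zinc finger protein that binds methylated DNA, was at 58.3, 137 and 175 CPM in ALK and 30.5 to 38.6 CPM in Ctrl (log2 fold change 1.79 ± 0.33, adjusted p = 0.00376). It was also above Ctrl in every KO mouse, at 52.5 to 75.4 CPM, and in every ALKKO mouse, at 48.0 to 59.0 CPM, without being called there. Its relative Zbtb4 was at 36.2, 17.5 and 32.9 CPM in ALK and 55.4 to 73.4 CPM in Ctrl, a fall by 1.19 on the log2 scale (adjusted p = 0.0118). Zfp57, which protects methylation at imprinted loci, was called higher (log2 fold change 2.64 ± 0.87, adjusted p = 0.0435), but the 3 tumors differed, with 25.3 and 23.8 CPM in ALK2 and ALK3 and 1.41 CPM in ALK1, against 1.83 to 4.13 CPM in Ctrl. Dnmt3l, the catalytically inactive relative of Dnmt3a and Dnmt3b, was close to absent, with 10 to 22 reads per Ctrl library and 0, 0 and 1 reads in the ALK libraries (called lower, adjusted p = 0.016).

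The genes whose pattern over the 12 mice was nearest to that of the called members were found by the root mean square difference of log2(CPM + 1), centred on each gene's mean. Nearest to Dnmt1 were Tuba1b, an alpha-tubulin whose reads can be shared with near-identical tubulin genes (0.261), and Cdc6, a replication licensing factor from the replication list (0.277), where Dnmt1 itself varied by 0.636 about its mean. Nearest to Dnmt3b were Tma16 (0.176) and Ccdc91 (0.186), with Dnmt3b varying by 0.682. Nearest to Tet1 were the non-coding genes Gm12454 (0.248) and Gm26660 (0.275), with Tet1 varying by 0.719. All 6 had their highest mean in ALK, as these members do, which follows from the choice by likeness and is no separate result. Tma16, for example, was at 27.3 ± 7.57 CPM in ALK against 8.31 ± 1.12 in Ctrl and 9.62 ± 2.23 in ALKKO (SD, n = 3).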

How the data were processed

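RNA of 12 mice was analysed, 3 each of Ctrl, KO, ALK and ALKKO, grouped by their labels. The labels give ages of 19 to 31 wk and the study's methods 18 wk. Stranded mRNA libraries were read from 1 end. The authors trimmed the reads (Trim Galore), mapped them to mm10 (STAR) and deposited raw HTSeq counts for each gene. Picard 2.19.2 is also named in the sample records. Versions of the other tools, the annotation release and the strand setting are not given in the sources used here. Of the alignments HTSeq assessed, 39.2% to 51.8% were not unique (highest in the 3 ALK libraries), 1.38% to 2.83% ambiguous (lowest in ALK) and 1.70% to 2.82% on no gene, and these are in no count. Of 50600 IDs, 50376 were matched to GENCODE M21 (GRCm38) without the version suffix. A floor of 3 counts corresponds to 0.159 to 0.24 CPM, for counting error alone.

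Genes were tested with edgeR 4.0.16 (R 4.3.3): TMM, filterByExpr, 1 term per group over all 12 libraries, robust glmQLFit, glmQLFTest and Benjamini-Hochberg adjustment over 16052 genes. The SE was derived from the F statistic. Shares and levels against replication genes were compared by exact two-sided permutation tests (scipy 1.17.1). The methods were tested on simulated data.

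The members and lists were chosen with earlier results of these data known. Genes named are the 9 members, the other methylation genes called in ALK against Ctrl (at most 6 per direction), the 2 genes nearest in pattern to each called member, Mki67, Pcna and Alk. Rag1, Cdt1 and Itgam are named because they had no reads. Alternatives were DESeq2 1.42.0 (size factors, Wald test), 2 other count filters, the replicate number as a block, only the groups compared, no fold threshold, other lengths, reference list or pseudocount, and each library left out. Same-numbered mice were not treated as pairs. Of 18 same-numbered pairs of libraries, 5 had deviations correlated over 0.1 (range of all 18, -0.143 to 0.445). All 5 were pairs of thymocyte libraries, with KO1 and ALKKO1 highest, so pairing among the thymocyte groups is not excluded. The fit with the replicate number as a block is given for that reason.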

Additional observations from a re-analysis of the deposited data

Results flagged for a closer look

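Dnmt3b and Mbd2 are given because the effect of NPM-ALK with the deletion (ALKKO against KO) differed from that without it (ALK against Ctrl) in a test of the difference itself. For Dnmt3b the difference was -1.50 on the log2 scale (edgeR adjusted p = 0.0286), from 1.70 without the deletion to 0.20 with it. For Mbd2 it was 0.67 (adjusted p = 0.0443), from -0.72 to -0.05. Among the other methylation genes named, Zbtb38 differed in the same way by -1.93 (adjusted p = 0.0287). Of all genes tested, 8.93% were called for this difference and 10.3% passed its adjusted p. ALK are tumor cells and ALKKO are thymocytes, so the deletion and the tumor state cannot be told apart in these values.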

How the results depend on the processing

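No called direction was reversed. Leaving out 1 library gave 1 to 2 members called in ALK against Ctrl, where Tet1 was the one lost, 2 to 3 in ALK against ALKKO, 0 to 1 in the difference of the transgene effects, and 0 in the 3 other comparisons. The call of Dnmt3b for that difference was lost in 8 of these 12 fits, all but those without KO2, KO3, ALK1 or ALK3 (adjusted p over the 12, 0.00882 to 0.0927), with no low-count filter (0 called, adjusted p = 0.0701) and with the replicate block (0 called, adjusted p = 0.051). Without a fold threshold 2 members, Dnmt3b and Mbd2, passed for it. The replicate block changed no other call of a member. Over all genes it gave 5 calls in ALKKO against Ctrl in place of 29, and 0 in KO against Ctrl in place of 3. Tet1 was also called in ALK against ALKKO with DESeq2's Wald test (adjusted p = 0.0482) and without ALK1 (0.0359). Counts over all genes moved by over 1.5 times with at least 10 counts in every library (1756 called in ALK against Ctrl in place of 3281, and 1531 in ALK against ALKKO in place of 3145) and with only the groups compared (2049 in ALK against ALKKO, and 98 in ALKKO against Ctrl). Leaving out 1 library moved them by over 1.5 times too: in ALK against Ctrl to 2130 without Ctrl1 (2130 to 3748 over the 6 libraries), in ALKKO against Ctrl to 5 to 9 in place of 29 without any 1 of the 6, and in KO against Ctrl to 0 without Ctrl3. The 1433 genes called for the difference of effects became 560, 649 and 728 without Ctrl1, Ctrl2 and Ctrl3, 831 without KO3, 716, 842 and 640 without ALKKO1, ALKKO2 and ALKKO3, and 2219 without ALK1. Leaving out a library for the median of the replication genes was added after the data were seen. The Wald test called 42 genes in KO against Ctrl, 98 in ALKKO against Ctrl, 24 in ALKKO against KO and 2486 for the difference of effects. With mitosis genes as reference, the difference of Dnmt1 was 0.075 in ALK against Ctrl, -0.93 in ALKKO against Ctrl and 0.9999 in ALK against ALKKO, and that of Uhrf1 in ALK against ALKKO was 0.23. With the longest transcript as length, the share of Dnmt3a in ALKKO was 11.3 percentage points above Ctrl. The cause of these shifts was not tested.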
